A study of Homo sapiens with 30 samples.

Results

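The change in nascent transcription between 2 and 4 days of exposure to GSK591 was measured in A549, an established line from a human lung adenocarcinoma. GSK591 is a small-molecule inhibitor of PRMT5, the main enzyme that places symmetric dimethylarginine on proteins such as the Sm proteins of the spliceosome. The comparison takes in the 2 libraries of cells held in 1 µM GSK591 for 4 days and the 2 libraries of cells held in it for 2 days, 4 of the 30 libraries of the series, and covers every gene in the count table. Of 58780 genes, 22919 had enough counts to be tested. The assay was PRO-seq, in which permeabilised cells extend their engaged RNA polymerases with biotin-labelled nucleotides, so that counts follow polymerases on genes rather than stored RNA. Values are set beside 2 untreated libraries, 2 libraries after 7 days of 1 µM GSK591, and 2 libraries each after 2 and 4 days of 1 µM MS023, an inhibitor of the type I arginine methyltransferases. Drugs were given in a final 0.01% DMSO, and the labels do not name a genetic change in any group. The untreated libraries carry no time in days, so length of exposure and time in culture cannot be told apart. All groups come from 1 established line, and nothing in the labels says that replicates were separate cultures, so p-values measure only the spread between these libraries, which may be technical.

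Genes for DNA replication are transcribed under E2F factors as cells pass from G1 into S phase, and genes for mitosis are transcribed later, largely under the DREAM and MuvB complexes with NF-Y bound at CCAAT boxes. Replication-dependent histone genes lie in clusters, mostly lack introns and are transcribed in S phase, when new DNA is packed into nucleosomes. Inhibition of PRMT5 is known for slowing proliferation of many tumour lines and for disturbing the splicing of weak introns.

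Promoter sequences of 4 genes that fell from 2 to 4 days are shown because they carry the motifs counted next. Each run gives the 150 bases directly before the gene's RefSeq start in GRCh38.p14, 5′ to 3′ on the gene's strand. Capitals mark every match to the motifs searched on both strands, namely CCAAT, which reads ATTGG on the other strand, the octamer ATTTGCAT, the TATA motif TATAAA, the CHR element TTTGAA and the E2F-type words TTTCGCGC, TTTGGCGC, TTTCCCGC and TTTGCCGC. Windows lie at chr6:27814872-27815021 (plus strand) for H2BC14, chr1:149841209-149841358 (minus) for H3C14, chr20:33686386-33686535 (minus) for E2F1 and chr17:44947774-44947923 (minus) for KIF18B.
H2BC14: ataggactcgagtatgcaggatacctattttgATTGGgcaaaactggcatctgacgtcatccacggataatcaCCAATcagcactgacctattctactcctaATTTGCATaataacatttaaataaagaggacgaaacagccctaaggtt
H3C14: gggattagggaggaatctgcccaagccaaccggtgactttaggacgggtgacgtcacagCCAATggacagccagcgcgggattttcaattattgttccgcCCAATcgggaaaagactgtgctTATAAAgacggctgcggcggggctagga
E2F1: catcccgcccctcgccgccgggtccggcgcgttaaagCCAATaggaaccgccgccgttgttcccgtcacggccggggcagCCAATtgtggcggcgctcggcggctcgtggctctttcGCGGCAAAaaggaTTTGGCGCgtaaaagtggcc
KIF18B: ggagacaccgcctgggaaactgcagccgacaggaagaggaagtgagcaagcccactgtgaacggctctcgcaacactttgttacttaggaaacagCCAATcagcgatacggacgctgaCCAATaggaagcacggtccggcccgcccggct
The H2BC14 window holds an octamer 48 bases before the start, the H3C14 window a TATA motif 28 bases before it, and the E2F1 window an E2F-type word on each strand, at 33 and 20 bases.

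Over 250 bases before the start, RefSeq windows matched 12136 of the 14978 protein-coding genes tested. CCAAT stood in 34.3% of those windows, in 49.6% of the windows of genes lower at 4 days and in 36.4% of those of genes higher. Among the replication and mitosis genes that fell the share was 64.8%, and among the histone genes that fell it was 79.1%. E2F-type words stood in 4.18% of all windows, 18.5% of those of the replication and mitosis genes that fell, 20.9% of those of the histone genes that fell and 3.09% of those of genes higher. The other 246 protein-coding genes that fell and had a window held CCAAT in 41.1% and E2F-type words in 4.07%. The octamer stood in 1.40% of all windows and 32.6% of those of the histone genes that fell. Over all 70 listed histone genes with a window, called or not, it stood in 14 of 18 H2B and 11 of 16 H2A windows, 1 of 15 H3 windows and none of the H1 or H4 windows. CHR elements stood in 8.68% of all windows, 18.5% of those of the replication and mitosis genes that fell and 32.6% of those of the histone genes that fell. TATA motifs stood in 6.02%, 0% and 67.4%, in that order. The median share of G and C was 64.4% over all windows, 64.8% for the replication and mitosis genes and 44.0% for the histone genes. Whether base composition plays a part in the shares was not tested. The replication and mitosis lists were chosen by gene function, and motifs were not counted apart in their members that did not fall. Their shares therefore cannot show whether a motif goes with the fall within these lists. These shares describe letters in a window, not bound factors.

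The 4 libraries held 8876853 to 10529388 counts, of which mitochondrial genes took 68.5% to 71.4%. Genes outside the mitochondrial genome and its nuclear copies had 2218969 to 2489180 counts at 2 days and 2752040 to 2795509 at 4 days. Levels are given as CPM, a count as a share of all counts of its library, mitochondrial ones included, scaled by the TMM method, so nuclear genes have low CPM. Replicates correlated with r = 0.975 at 2 days and 0.979 at 4 days (Pearson, log2 CPM), across 11117 genes, which are not independent replicates. Epithelial markers summed to 480.7 and 479.6 CPM at 2 days and to 384 and 443 CPM at 4 days, and 1 of the 6, CDH1, the cadherin of epithelial junctions, was called higher (log2 fold change 1.21). Summed markers of fibroblasts, endothelium, leukocytes and erythroid cells lay between 0.90 and 6.82 CPM, with KDR and HLA-DRA at 0 in all 4 libraries. CD14 was the 1 leukocyte marker tested and was called higher (1.31), with PTPRC at 0 to 3 counts a library.

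PRMT5 itself had 6.05 and 5.40 CPM at 2 days and 6.63 and 5.72 CPM at 4 days (log2 fold change 0.11 ± 0.22 SE, n = 2 and 2, edgeR adjusted p = 0.874). GSK591 blocks the enzyme, so the gene's transcription checks no label. WDR77, the PRMT5 cofactor, CLNS1A, which brings it Sm proteins, and SNRPB, an Sm protein, had log2 fold changes of -0.34, -0.15 and -0.06 and were not called either. None of the 12 tested methyltransferase and PRMT5 partner genes was called by edgeR, 4 had an unadjusted p under 0.05, and DESeq2 called 1 lower. That gene, chosen after its values were seen, was COPRS, which ties PRMT5 to histones (log2 fold change -0.93 in edgeR).

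From 2 to 4 days of GSK591, 44 of 56 tested histone genes and 68 of the 185 tested genes of 9 replication and mitosis lists fell, among them MCM2, E2F1 and AURKB, and a smaller set of genes rose that included the gel-forming mucins MUC5AC and MUC5B. At a Benjamini-Hochberg adjusted p of 0.05, the quasi-likelihood test of edgeR called 778 of 22919 genes, 3.39%. In bulk samples fewer cells in S phase or mitosis and less transcription per cell cannot be told apart. Of these 516 were lower (2.25% of genes tested), with a median log2 fold change of -0.74, and 262 were higher (1.14%), with a median of 0.76. The median of all genes tested was 0.00. TMM scaling puts the bulk of genes near 0, so a shift common to all genes would not show. At least 1 on the log2 scale separated the times for 140 of the lower and 72 of the higher genes. In every called gene both 4-day libraries lay beyond both 2-day libraries, which was so of 47.8% of all genes tested. Each library weighed on the count: without replicate 1 or 2 of the 2-day group it was 289 or 286, and without replicate 1 or 2 of the 4-day group 215 or 357. Scaling to total counts alone, which raised the median of all genes to 0.13, gave 73 calls (32 higher, 41 lower), and DESeq2 made 430 (100 higher, 330 lower).

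**Figure D1:**
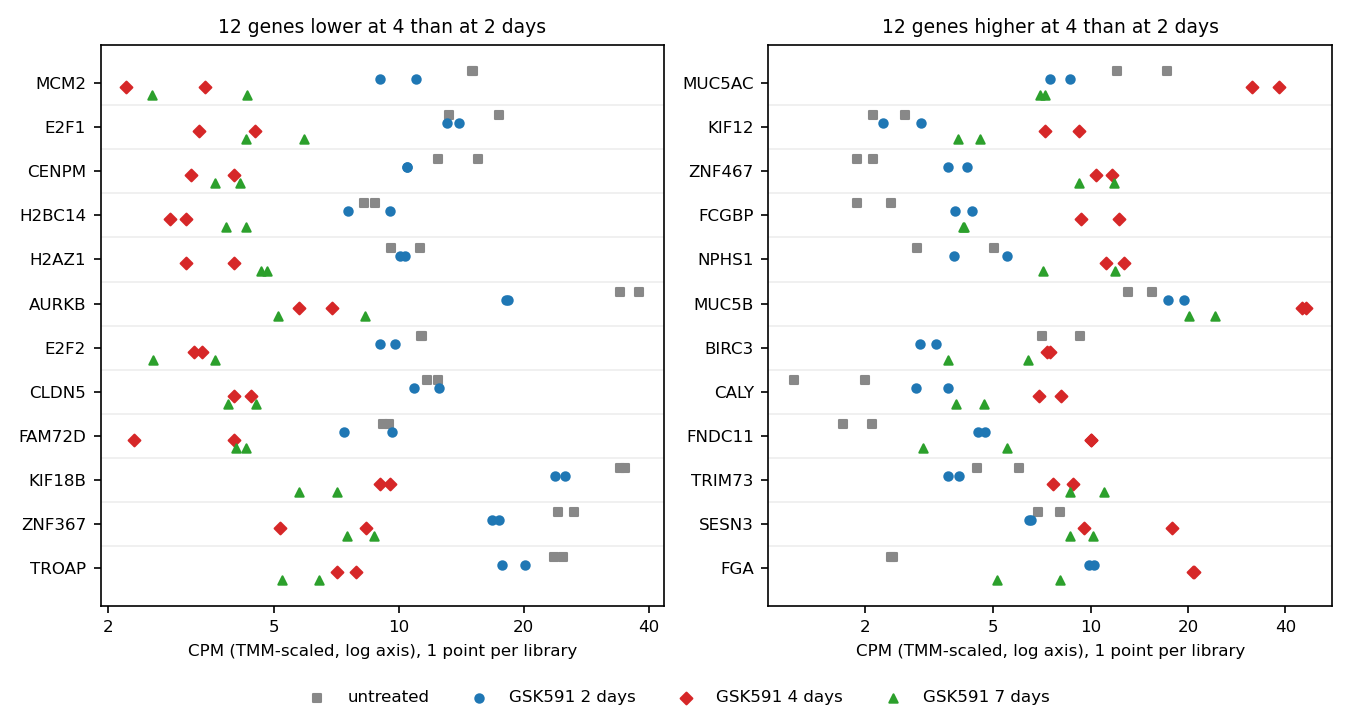
CPM on a log axis in each library of untreated cells and of cells after 2, 4 and 7 days of GSK591, for the 12 protein-coding genes with the largest falls (left) and rises (right) from 2 to 4 days among called genes whose mean reached 5 CPM. On the left the 4-day diamonds lie below the 2-day circles in every row, as for MCM2 at 2.21 and 3.41 against 9.01 and 11.0 CPM, and on the right above them, as for MUC5AC at 31.5 and 38.1 against 8.60 and 7.47 CPM.

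Of the 20 tested genes that license origins or form the replicative helicase, 11 fell, none rose, and the median log2 fold change was -0.86. MCM2, a subunit of that helicase (chr3:127598223-127622436 in GENCODE 29 on hg38, as for all gene positions here), had 15.0 and 15.1 CPM in untreated cells, 9.01 and 11.0 CPM at 2 days and 2.21 and 3.41 CPM at 4 days. The times did not overlap, and the fall was 1.84 ± 0.24 (SE) on the log2 scale (edgeR adjusted p = 9.63e-07). MCM2 overlaps 2 genes on the other strand, whose reads cannot be told apart without strand. MCM4, another helicase subunit, went from 32.8 and 25.7 CPM to 12.3 and 15.0 CPM. ORC6, of the origin recognition complex, and MCM5 had log2 fold changes of -1.19 and -1.09 and were called too. CDT1, the loader of the helicase, had 41.5 and 46.5 CPM at 2 days and 38.7 and 42.5 CPM at 4 days and was not called (-0.12 ± 0.12 SE), nor was GINS2 (-0.38).

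At the replication fork, 4 of 24 polymerase, primase and clamp genes fell, with a list median of -0.48. POLE, the catalytic subunit of the leading-strand polymerase, went from 23.5 and 22.5 CPM to 11.3 and 9.73 CPM (log2 fold change -1.13 ± 0.15 SE). The others were the primase subunit PRIM1 (-1.68), the clamp loader subunit RFC5 (-0.82) and the ligase LIG1 (-0.65). PCNA, the clamp, had 28.2 and 24.0 CPM and then 18.2 and 19.0 CPM, which missed the threshold (edgeR adjusted p = 0.0536). FEN1, the flap nuclease, had 22.6 and 24.6 CPM and then 20.0 and 24.0 CPM, with overlapping libraries.

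Among 11 genes of nucleotide supply, 4 fell and the median was -0.55. RRM2, the regulated subunit of ribonucleotide reductase, had 32.7 and 29.4 CPM at 2 days and 15.8 and 13.9 CPM at 4 days (log2 fold change -1.06 ± 0.13 SE, edgeR adjusted p = 1.3e-07). DUT, the dUTPase, and CTPS1, CTP synthase, fell by 0.86 and 0.69 on the log2 scale. CAD, which starts pyrimidine synthesis, and IMPDH2, of guanine nucleotide synthesis, had -0.14 and -0.11 and were not called.

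Of 20 E2F factors and regulators of the G1 to S step, 8 fell, and the median was -0.80. E2F1, an activator of replication genes (chr20:33675683-33686404), had 13.2 and 17.4 CPM in untreated cells, 14.0 and 13.1 CPM at 2 days and 4.51 and 3.31 CPM at 4 days. At 2 days its range met that of untreated cells, and both 4-day libraries lay below all of these (log2 fold change -1.78 ± 0.22 SE, edgeR adjusted p = 1.31e-07). Activators E2F2 and E2F3 fell by 1.51 and 0.94, and UHRF1, which recognises hemimethylated DNA, by 1.02. The cyclins D, CCND1 and CCND3, had log2 fold changes of -0.26 and -0.04 and were not called.

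Replication-dependent histone genes formed the list with the most calls. Of 71 listed, 56 passed the count filter, 44 of these fell, none rose, and the median was -0.74. By class, 3 of 4 tested H1 genes, 11 of 12 H2A, 12 of 15 H2B, 8 of 12 H3 and 10 of 13 H4 genes fell. The class medians were -0.74, -0.82, -0.90, -0.61 and -0.61 in that order. On chromosome 6, 30 of 41 tested genes fell, and on chromosome 1 it was 13 of 14. Without 1 of the 4 libraries, 22 to 38 histone genes were called lower, and with total-count scaling 9 were.

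H3C14, an H3 gene (chr1:149839538-149841193), had 222 and 251 CPM in untreated cells, 181 and 190.2 CPM at 2 days and 72.2 and 76.9 CPM at 4 days. Its fall was 1.31 ± 0.11 (SE) on the log2 scale (edgeR adjusted p = 8.78e-12). H2BC14 (chr6:27815044-27815424), an H2B gene, had 7.53 and 9.54 CPM and then 3.07 and 2.81 CPM (-1.54 ± 0.23 SE). H3C15, H4C15 and HIST2H2AA4 fell by 1.21, 0.94 and 0.88 on the log2 scale. H3C14 and H3C15, and likewise H4C15 and HIST2H2AA4, have near-identical copies, and both H3 genes overlap a gene on the other strand, so their split of reads is uncertain. Counts of histone genes called therefore include copies that are not independent measurements. H1-4, a linker histone, had 89.3 and 104 CPM and then 69.0 and 79.4 CPM and was not called, and H2AC6 was not called either (-0.46).

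Summed over each class, the H2A and H2B genes of untreated cells overlapped those of 2 days, and the 4-day sums were lower in all 5 classes. H2B genes summed to 419 and 492 CPM in untreated cells, 360.3 and 443 CPM at 2 days, 191 and 225 CPM at 4 days and 234 and 233 CPM at 7 days. H3 genes summed to 769 and 853 CPM, then 614 and 650.5 CPM, then 313 and 332 CPM, and 289 and 294 CPM at 7 days. As a share of counts outside mitochondrial genes, histone genes took 0.820% and 0.950% at 2 days and 0.541% and 0.542% at 4 days. In untreated cells the shares were 1.00% and 1.15%.

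**Figure D2:**
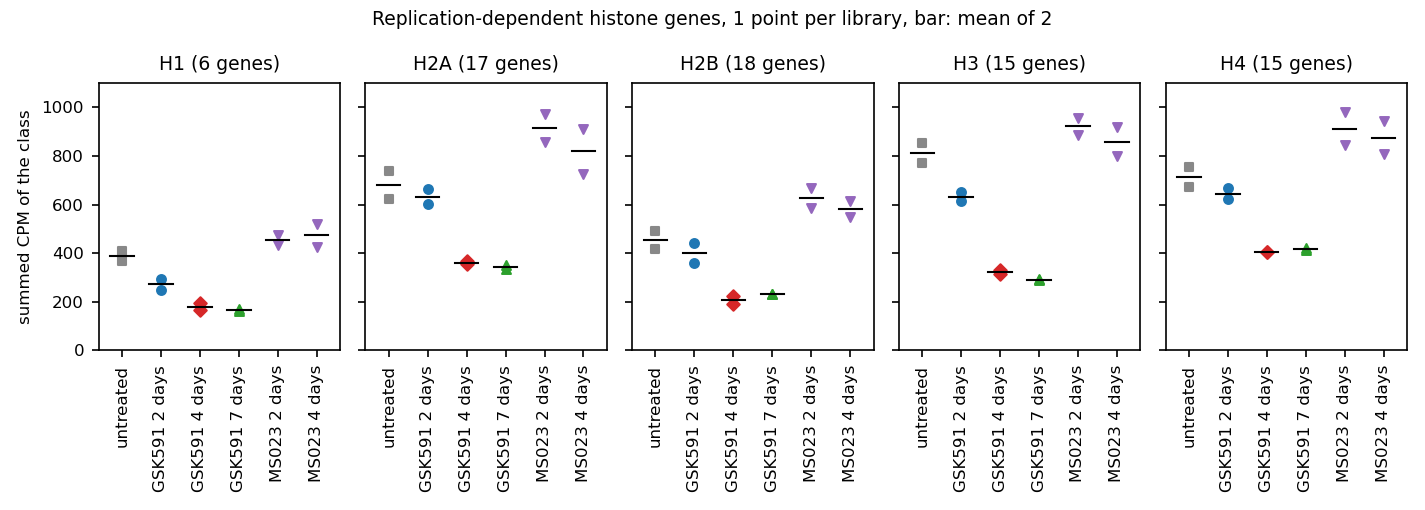
Summed CPM of the genes of each histone class in each library, with a bar at the mean of the 2 libraries of a group. In every class both 4-day GSK591 libraries lie below both 2-day ones, as for H2B at 191 and 225 against 360.3 and 443 CPM, the 7-day libraries lie near the 4-day ones, and the MS023 libraries at 2 and 4 days lie above the GSK591 libraries of all times.

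Homologous recombination and Fanconi anaemia genes, which repair broken and crosslinked DNA, had 7 of 25 called lower and a median of -0.65. BRCA1 had 12.6 and 13.1 CPM at 2 days and 5.76 and 5.82 CPM at 4 days (log2 fold change -1.15 ± 0.25 SE, edgeR adjusted p = 0.00679, or 0.0546 to 0.117 without 1 of the 4 libraries). The Fanconi core protein FANCA and the nuclease EXO1 fell by 0.89 and 1.17. FANCG, also of the core complex, had -0.22 and was not called. Without 1 of the 4 libraries, 1 to 3 of the 25 were called, and with total-count scaling none were.

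Among 21 mitotic kinases and cyclins 12 fell, with a median of -0.83. AURKB, the kinase of the chromosomal passenger complex (chr17:8204733-8210600), had 34.0 and 37.8 CPM in untreated cells, 18.1 and 18.3 CPM at 2 days and 5.76 and 6.92 CPM at 4 days. It fell at 4 against 2 days by 1.52 ± 0.16 (SE) on the log2 scale (edgeR adjusted p = 3.76e-09). CCNF, cyclin F, went from 13.0 and 14.7 CPM to 5.47 and 6.22 CPM. WEE1, the kinase that holds CDK1 inactive, and CDC20, the activator of the anaphase-promoting complex, fell by 0.91 and 0.78. CCNB2, cyclin B2, had 31.1 and 28.7 CPM and then 26.2 and 30.2 CPM, with overlapping libraries, and CDC25B, a phosphatase that activates CDK1, had -0.28.

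Kinesin and spindle genes had the median -0.76 over 24 genes, all with a negative log2 fold change, of which 4 were called. KIF18B, a kinesin that trims astral microtubules, went from 25.1 and 23.8 CPM to 9.51 and 9.03 CPM (-1.40 ± 0.14 SE, edgeR adjusted p = 1.15e-09). KIFC1, a minus-end kinesin, CKAP2L, a spindle protein, and KIF22, the chromokinesin, fell by 1.19, 1.28 and 0.45. ASPM, of the spindle poles, had 21.0 and 21.8 CPM and then 12.5 and 16.2 CPM and was not called (-0.58).

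Centromere and kinetochore genes had 8 of 20 called lower and a median of -1.05. CENPM, of the inner kinetochore, had 10.5 and 10.5 CPM at 2 days and 3.17 and 4.01 CPM at 4 days. HJURP, the chaperone that loads the centromeric histone CENP-A, went from 26.2 and 27.5 CPM to 12.9 and 11.5 CPM (-1.14 ± 0.14 SE). CENPH and SPC24, both of the kinetochore, fell by 1.87 and 1.43. CENPA, the centromeric histone itself, had 38.3 and 37.4 CPM and then 32.6 and 40.3 CPM, with overlapping libraries.

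Condensation and cohesion genes had 10 of 20 called lower and a median of -1.04. ESPL1, the separase, went from 16.1 and 17.6 CPM to 6.72 and 7.12 CPM, and BIRC5, survivin, from 20.4 and 19.8 CPM to 8.84 and 9.03 CPM. CDCA5, sororin, and CDCA2, a chromatin regulator of mitotic exit, fell by 1.06 and 1.08. MKI67, which coats mitotic chromosomes and serves as a proliferation marker, had 80.7 and 68.4 CPM in untreated cells, 53.9 and 41.8 CPM at 2 days and 29.2 and 19.3 CPM at 4 days. The 4-day libraries of MKI67 lay below the 2-day ones, but the fitted spread was wide (-0.98 ± 0.43 SE, edgeR adjusted p = 0.289).

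In these 9 replication and mitosis lists and the histone list no member rose in edgeR or DESeq2, and 1 had a positive value with an unadjusted p under 0.05 in edgeR. The genes of the 9 lists that fell number 68, and the histone genes 44, of the 421 protein-coding genes that fell. Leaving out 1 library gave 7 licensing genes, 6 to 7 E2F and G1/S genes, 5 to 8 mitotic kinases and cyclins, 3 to 5 centromere genes and 4 to 7 condensation genes. Total-count scaling gave 2 to 3 calls in each of those 5 lists, and the 10 list medians were then -0.35 to -0.92.

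**Figure D3:**
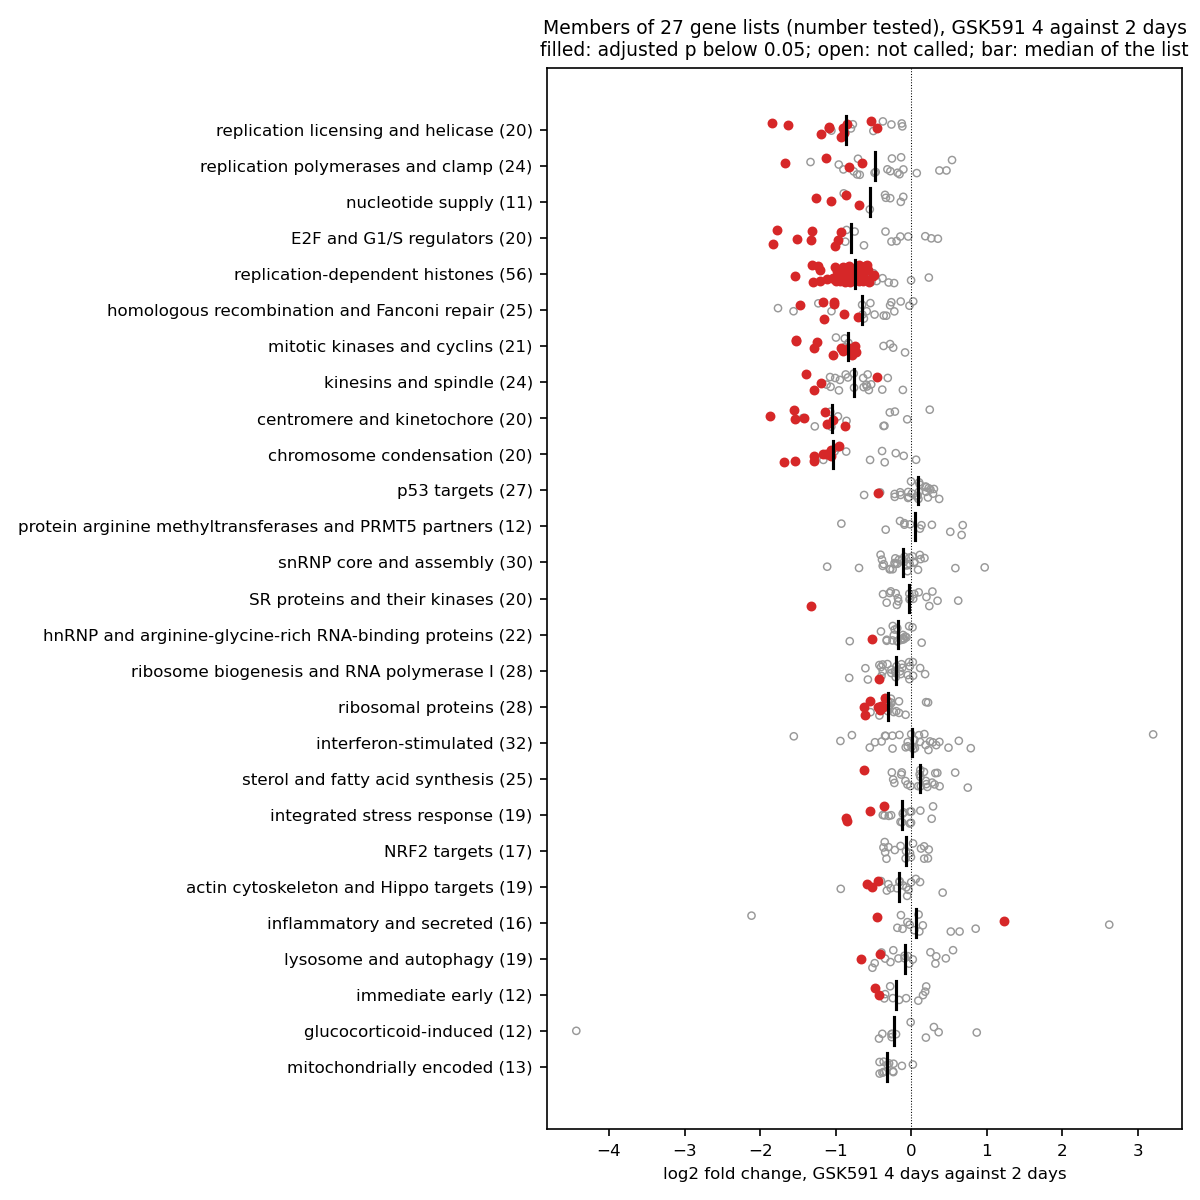
Log2 fold change of each tested member of 27 gene lists at 4 against 2 days of GSK591, filled where called, with a bar at the list median and the number tested in brackets. The 10 lists from replication licensing to chromosome condensation have medians from -0.48 to -1.05, and the other 17 have medians from -0.32 to 0.12.

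The authors' deposited tables compare each time with untreated cells, and for some genes not called here their values at 2 and 4 days lie far apart. For FEN1 the authors' deposited tables give a log2 fold change of -0.23 at 2 days and -2.28 at 4 days. CDT1 has -0.47 and -1.76 in the authors' deposited tables, GINS2 -0.24 and -2.15, PCNA 0.03 and -1.24, CCNB2 -0.51 and -1.32, MKI67 -0.16 and -1.30 and SNRPB -0.27 and -1.04. Against untreated cells the count table gave MKI67 -0.64 and -1.62 and SNRPB -0.19 and -0.25. Over the licensing list, the median of the authors' deposited values was -0.47 at 2 days and -1.59 at 4 days in 18 genes. For the 21 kinesin and spindle genes in the authors' deposited tables the medians were -0.35 and -1.30, and for the 19 mitotic kinases and cyclins -0.33 and -1.29. The count table used here gave the licensing list -0.50 at 2 days and -1.47 at 4 days against untreated cells. Both times share the untreated libraries, and the cause of the differences for single genes was not tested.

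Genes that respond to p53 include inhibitors of the cell cycle. For 23 of them the authors' deposited median against untreated cells was 0.29 at 2 days, with 11 called higher. At 4 days the authors' deposited median was 0.68, with 17 called higher and 1 lower. The count table used here gave medians against untreated cells of 0.49 at 2 days and 0.35 at 4 days over 27 genes, a larger set. Compared directly from 2 to 4 days, 16 of these 27 genes had a positive and 11 a negative log2 fold change, with a median of 0.08. Of the 27, 1 was called. It was DDB2, a damage sensor, which fell by 0.44 (edgeR adjusted p = 0.0188, or 0.079 to 0.179 without 1 of the 4 libraries). CDKN1A, the p21 inhibitor, had 10.3 and 11.1 CPM in untreated cells, 20.2 and 21.0 CPM at 2 days and 23.1 and 24.9 CPM at 4 days (log2 fold change 0.22 ± 0.14 SE, edgeR adjusted p = 0.506). GDF15, a secreted stress cytokine, had 45.5 and 52.5 CPM, then 91.9 and 98.4 CPM, then 94.6 and 90.2 CPM. Both p53 targets thus stood above untreated cells at 2 days already, and their 2- and 4-day values differed by less than the test could call. MDM4, whose splicing is known to depend on PRMT5, had 0.04 and was not called, and gene counts do not measure splicing.

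Protein-coding genes of the splicing apparatus were called in shares near or below that of all genes. Of 62 tested genes annotated as small nuclear RNA genes, pseudogenes among them, 12 were called lower, as described under other observations. None of 30 snRNP core and assembly genes was called by edgeR or DESeq2 (median -0.11, 4 with an unadjusted p under 0.05 in edgeR), 1 of 20 SR protein genes was and 1 of 22 hnRNP genes was. For 27 of the snRNP genes the authors' deposited tables give medians against untreated cells of -0.05 at 2 days and -0.32 at 4 days, with 2 and 12 called lower. The count table used here gave the 30 snRNP genes -0.12 at 2 days and -0.15 at 4 days against untreated cells. SRSF2, a splicing activator, had 11.8 and 13.6 CPM at 2 days, 5.47 and 4.61 CPM at 4 days and 7.90 and 10.9 CPM at 7 days (-1.33 ± 0.20 SE, edgeR adjusted p = 1.5e-05), and it overlaps genes on both strands. HNRNPA1, a splicing repressor with arginine-glycine repeats, fell by 0.52. SNRNP70, of the U1 snRNP, had 56.2 and 53.4 CPM and then 49.6 and 58.3 CPM, with overlapping libraries.

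Ribosomal protein genes had 9 of 28 called lower with small changes (median -0.31). RPS9 went from 123 and 123 CPM to 88.6 and 92.1 CPM (-0.44 ± 0.10 SE, edgeR adjusted p = 0.00595), and RPL19 fell by 0.55. Leaving out 1 library gave 1 to 3 calls, and total-count scaling none. NOP56, a core protein of box C/D snoRNPs, was the 1 of 28 ribosome biogenesis genes called (-0.43).

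Lists of stress, cytoskeletal, immediate early and lysosome genes had larger shares called lower than the 2.25% of all genes tested. In the integrated stress response list, which holds targets of ATF4, 4 of 19 fell. PPP1R15A, the GADD34 phosphatase subunit that ends that response, went from 54.0 and 56.5 CPM to 27.7 and 33.1 CPM (-0.87 ± 0.12 SE, edgeR adjusted p = 1.74e-06), and ATF4, STC2 and SLC3A2 fell by 0.55, 0.86 and 0.36. DDIT4, an inhibitor of mTORC1, had 193 and 205 CPM and then 196 and 201 CPM. The cytoplasmic actins ACTB and ACTG1 and the matricellular gene CCN1 fell by 0.58, 0.44 and 0.52, 3 of 19 in their list. Immediate early genes JUN and JUND fell by 0.48 and 0.43, 2 of 12. SQSTM1, an autophagy receptor, fell by 0.41, and 2 of 19 lysosome and autophagy genes were called lower. In these lists, in the order given, DESeq2 called 3, 3, 0 and 1 genes lower. Total-count scaling called no member of them lower. At 4 against 2 days of MS023, edgeR called 7, 6, 5 and 4 of their genes lower.

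Several lists held no called gene. These were the 32 interferon-stimulated genes (median 0.01), the 17 NRF2 targets (-0.07), the 12 glucocorticoid-induced genes (-0.23) and the 13 mitochondrially encoded genes (-0.32). In edgeR 1, 1, 7 and 0 of them had an unadjusted p under 0.05, in that order, and DESeq2 called none. AKR1C1, an NRF2 target, had 204 and 209.5 CPM and then 227 and 255 CPM. Of 16 inflammatory and secreted genes, 1 fell and 1, BIRC3, rose.

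The 262 genes that rose lay outside the 27 pathway lists, apart from BIRC3. MUC5AC, a gel-forming airway and stomach mucin (chr11:1157953-1201138), had 17.2 and 12.1 CPM in untreated cells, 8.60 and 7.47 CPM at 2 days, 31.5 and 38.1 CPM at 4 days and 7.21 and 6.97 CPM at 7 days. Its rise from 2 to 4 days was 2.12 ± 0.51 (SE) on the log2 scale (edgeR adjusted p = 0.0312), and that p was 0.114 to 0.214 without 1 of the 4 libraries and 0.167 with total-count scaling. MUC5B, the neighbouring mucin gene (chr11:1223066-1262172), had 15.5 and 13.0 CPM, then 19.5 and 17.4 CPM, then 44.9 and 46.4 CPM, and 24.3 and 20.1 CPM at 7 days (1.31 ± 0.19 SE, edgeR adjusted p = 7.08e-05). FCGBP, a mucus protein, went from 4.30 and 3.79 CPM to 9.32 and 12.2 CPM. In MUC5AC the 2-day libraries lay below the untreated ones and the 4-day libraries above them.

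KIF12, a kinesin gene outside the mitotic set, went from 2.29 and 2.99 CPM to 7.20 and 9.23 CPM (1.62 ± 0.29 SE, edgeR adjusted p = 0.000229). ZNF467, a zinc finger gene, had 1.89 and 2.12 CPM in untreated cells, 3.63 and 4.14 CPM at 2 days and 10.4 and 11.6 CPM at 4 days. FGA, the fibrinogen alpha chain, had 2.45 and 2.42 CPM, then 10.2 and 9.88 CPM, then 20.7 and 20.9 CPM. BIRC3, an inhibitor of apoptosis under NF-kB, had 9.23 and 7.05 CPM in untreated cells, 2.96 and 3.33 CPM at 2 days and 7.49 and 7.32 CPM at 4 days, so that its rise brought it back to the untreated range. The nephrin gene NPHS1, CALY, FNDC11, TRIM73 and SESN3, a sestrin, rose by 1.34, 1.21, 1.12, 1.12 and 1.08 on the log2 scale. SESN3 had 17.9 and 9.53 CPM in its 4-day libraries, an unequal pair.

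The remaining large falls were H2AZ1, a histone variant gene (10.1 and 10.3 CPM, then 3.07 and 4.01 CPM), the tight junction gene CLDN5, FAM72D, ZNF367 and TROAP, which acts at spindle poles. Their log2 fold changes were -1.53, -1.47, -1.44, -1.35 and -1.34.

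By gene type, 421 protein-coding genes fell and 210 rose of 14978 tested, and 44 lincRNA or antisense genes fell and 33 rose of 3939. IGFL2-AS1, a lincRNA gene (chr19:46189166-46203083), had 32.3 and 31.0 CPM in untreated cells, 25.8 and 31.5 CPM at 2 days, 9.99 and 9.13 CPM at 4 days and 34.2 and 37.1 CPM at 7 days. It fell by 1.59 ± 0.14 (SE) on the log2 scale from 2 to 4 days (edgeR adjusted p = 5.25e-11) and at 7 days both libraries lay above both untreated ones. SNHG1, a host gene of snoRNAs, went from 33.6 and 36.5 CPM to 14.6 and 14.0 CPM, and 7 genes on its own strand overlap it. AC068338.2 fell by 0.97, and LINC02688, AC145124.1 and AC099811.3 rose by 1.40, 1.15 and 1.05.

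Protein-coding genes that fell were shorter, with a median length of 13.3 kb against 31.2 kb for all tested and 32.8 kb for those that rose. Single-exon genes made up 51 of the 421 that fell, 34 of them histone genes, and 2 of the 210 that rose. The replication and mitosis genes that fell had a median of 24.3 kb, and the 309 protein-coding genes that fell outside these lists 13.3 kb. Whether length plays a part in the calls was not tested.

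The step from 4 to 7 days shares the 4-day libraries with the step from 2 to 4 days, so their values are given side by side only. At 7 against 4 days, 1901 genes were called, 8.29% of those tested, with 928 higher (4.05%) and 973 lower (4.25%). Total-count scaling, which took the median of all genes to -0.44, gave 127 higher and 3536 lower. Over the 20 licensing genes the median was -0.86 from 2 to 4 days and -0.13 from 4 to 7 days, where 1 was called, and over the 56 histone genes it was -0.74 and then -0.06, with 6 called. With total-count scaling the 4 to 7 day medians were -0.58 for licensing, with 4 called lower, and -0.50 for histone genes, with 15 called lower. MCM2 had 4.30 and 2.55 CPM and AURKB 5.11 and 8.31 CPM at 7 days, both overlapping the 4-day libraries. MUC5AC fell back by 2.29 ± 0.52 (SE) on the log2 scale (edgeR adjusted p = 0.0117), FGA by 1.68 and HES7, a repressor of the Notch pathway that had risen by 0.87, by 1.47. Of 19 actin and Hippo target genes, 3 fell from 2 to 4 days and 12 rose from 4 to 7 days, or 3 with total-count scaling. JUN had 25.7 and 33.0 CPM at 2 days, 17.5 and 24.8 CPM at 4 days and 89.2 and 90.5 CPM at 7 days. The largest rises from 4 to 7 days under the naming rule, of PSG4, MARCHF4 and ANKRD1 (2.52, 2.12 and 2.11), stood beside changes of -0.41, -0.07 and -0.40 from 2 to 4 days that were not called.

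MS023 was given at the same dose and for the same times, and its 4 libraries are not shared with the GSK591 step. At 4 against 2 days of MS023, 1126 genes were called, 4.91%, with 509 higher (2.22%) and 617 lower (2.69%). Total-count scaling gave 52 higher and 27 lower. Both inhibitors called 263 genes, 33.8% of the GSK591 calls and 23.4% of the MS023 calls, 262 of them in the same direction. Across 11050 genes whose mean reached 5 CPM, Pearson's r between the log2 fold changes of the inhibitors was 0.566, as a description of genes that share libraries and sequencing. Of the 516 genes lower with GSK591, 469 had a negative value with MS023 (median -0.37, beside -0.01 over all genes tested) and 184 were called lower. Of the 262 higher, 245 had a positive value (median 0.43) and 78 were called higher. Genes that fell with both include E2F1 (-1.04 with MS023), H2AZ1 (-1.02), IGFL2-AS1 (-1.68) and SNHG1 (-0.83), and MUC5B rose with both (2.03 with MS023). MUC5AC had a log2 fold change of 1.57 with MS023 that was not called.

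The difference between the GSK591 and the MS023 step was called for 43 genes, 0.188% of those tested, of which 37 were lower (0.161%) and 6 higher (0.0262%) with GSK591. Of the 37, 12 were replication-dependent histone genes, 32 fell with GSK591 and none was called lower with MS023. The histone genes include the near-identical H3C14 and H3C15, which are not independent measurements. H3C14 had 259 and 274 CPM at 2 days and 218 and 247 CPM at 4 days of MS023, and the difference in log2 change was -1.12 ± 0.15 (SE, edgeR adjusted p = 4.1e-05). Over the 56 histone genes the median was -0.74 with GSK591, where 44 fell, and -0.10 with MS023, where none was called by edgeR or DESeq2 and 2 had an unadjusted p under 0.05 in edgeR. Over the 20 licensing genes the medians were -0.86 and -0.22, with 11 and 4 called lower. KIF18B had 23.6 and 25.3 CPM and then 20.5 and 19.4 CPM with MS023, and its difference was -1.11 ± 0.19 (SE, edgeR adjusted p = 0.00117). AURKB, E2F2 and MCM2 had differences of -1.15, -1.51 and -1.44.

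Interferon-stimulated genes were also among the 37, but as genes that rose with MS023. With MS023, 12 of 32 rose from 2 to 4 days (3 in DESeq2) and the median was 0.71, against none called and 0.01 with GSK591, and the difference was called for 3. MX1, an antiviral GTPase, had 5.57 and 4.52 CPM at 2 days and 15.5 and 18.1 CPM at 4 days of MS023, beside 3.09 and 2.41 CPM and then 2.11 and 1.60 CPM with GSK591. Its difference was -2.28 ± 0.41 (SE, edgeR adjusted p = 0.00287). The 6 genes with a positive difference all fell with MS023, as PLAU, the urokinase gene, from 10.6 and 12.0 CPM to 6.68 and 6.48 CPM, while it had 7.66 and 11.0 CPM and then 12.9 and 14.4 CPM with GSK591. Of these, AC009690.1 was also called higher with GSK591 (0.74). Without 1 of the 8 libraries the difference was called for 11 to 31 genes, the lowest without replicate 1 of GSK591 at 4 days, and with total-count scaling for none, beside 603 at an unadjusted p under 0.05 in edgeR and 28 called by DESeq2.

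**Figure D4:**
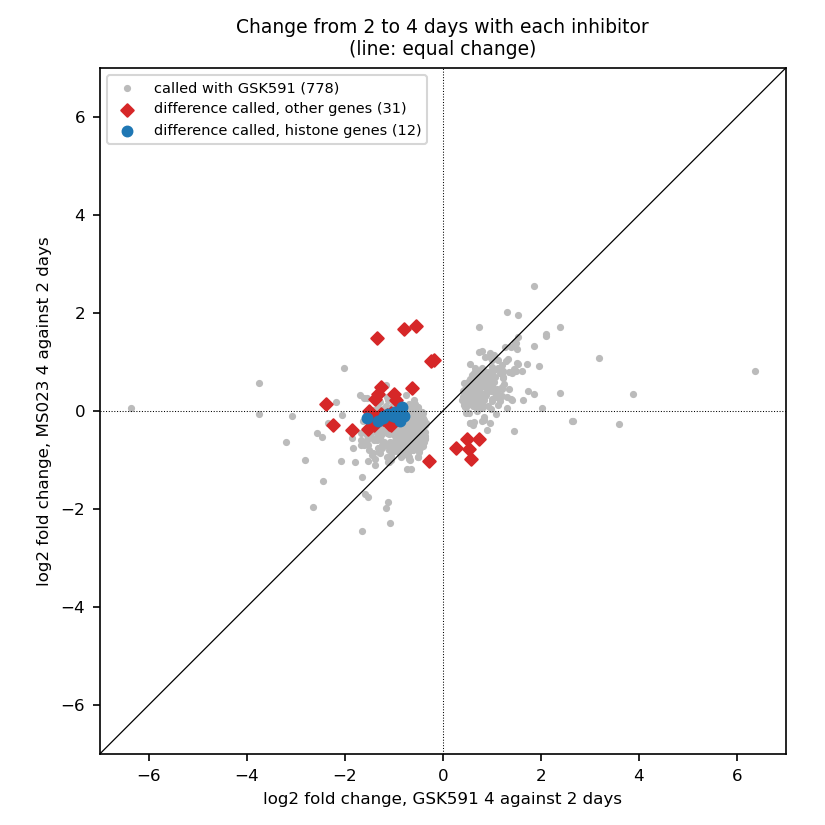
Log2 fold change from 2 to 4 days with GSK591 (horizontal) and with MS023 (vertical) for the 778 genes called with GSK591 and the 43 genes whose difference was called, with histone genes as blue circles and the others as red diamonds. The 12 histone genes sit left of the line of equal change near 0 on the MS023 axis, and MX1 sits above the axis at 1.73.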

How the data were processed

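PRO-seq counts of A549 cells were taken as deposited. The deposited table holds raw whole-number counts per gene, made with featureCounts 2.0.1 on hg38 per the submitters' processing notes; aligner, feature type and strand setting are not given in the sources used here. The authors' deposited comparison tables carry the column names of DESeq2, per the file headers, and were used only for quoted values: their mean signal per gene, log2 fold changes with errors, and p-values are the authors' own. Counts were tested with edgeR 4.0.16 (R 4.3.3, limma 3.58.1) by the quasi-likelihood test on all 30 libraries in 15 groups, with TMM scaling, filterByExpr (minimum count 10, total 15), 15 residual degrees of freedom and Benjamini-Hochberg adjustment over all genes at 0.05. CPM are TMM-scaled. The common biological coefficient of variation was 10.6%. The procedure was tested on simulated data for 4 against 2 days of GSK591. In 5 runs, 200 of 22919 genes were changed, all other means were equal between groups, and libraries were independent with the spread fitted to these data. It called 7.46% of genes changed by 0.5 on the log2 scale, 44.5% of those changed by 1 and 73.6% of those changed by 2. A gene that was not called is therefore not shown to be unchanged. Of the simulated calls 4.58% were false, a share that belongs to these settings and is not an error rate of the calls in the real data. Standard errors are on the log2 scale. Gene symbols and promoters came from RefSeq GRCh38.p14 and coordinates from GENCODE 29. Members and gene lists were chosen with earlier results of these data known. Named genes follow a rule: PRMT5, WDR77, CLNS1A, SNRPB, MDM4, CDKN1A and MKI67; the 12 largest rises and falls among called protein-coding genes whose mean reached 5 CPM and whose libraries were separate; 3 lncRNAs each way; up to 4 called and 2 uncalled genes per list; 4 each way for the difference between inhibitors; and 3 each way for 7 against 4 days. CDH1, CD14, PTPRC, KDR and HLA-DRA were named as markers. Some genes that the rule takes are not reported here. Alternatives were other scalings, no count filter, DESeq2 1.42.0, a replicate block, a fit to the compared groups only, no mitochondrial or ribosomal RNA genes, a processed-pseudogene covariate and leaving out each library. No molecular identifiers are mentioned, so precision covers counting and the spread of 2 libraries.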

Additional observations from a re-analysis of the deposited data

Results flagged for a closer look

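For 24 of the named genes the change from 2 to 4 days differed between GSK591 and MS023 by a test of the difference itself, the interaction in edgeR. The value given is the GSK591 log2 change minus the MS023 one. Among replication and G1/S genes it was -1.44 for MCM2, -0.82 for MCM4, -0.77 for RRM2, -1.51 for E2F2, -1.68 for E2F7 and -1.64 for PCLAF, the PCNA-binding factor. E2F7, a repressor of the E2F family, had 7.39 and 6.67 CPM and then 2.79 and 2.81 CPM with GSK591, beside 5.28 and 3.88 CPM and then 5.97 and 5.70 CPM with MS023.

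Among histone genes it was -1.40 for H2BC14, -1.12 for H3C14, -1.06 for H3C15, -0.83 for H4C15 and -0.67 for HIST2H2AA4. Mitotic genes had -1.15 (AURKB), -1.11 (KIF18B), -1.19 (CCNF), -1.06 (HJURP), -1.04 (BIRC5) and -1.02 (CDCA5), and FAM72D had -1.37. HJURP had 32.1 and 34.1 CPM and then 32.2 and 30.3 CPM with MS023, where the times overlapped.

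The antiviral gene MX1 had -2.28. Positive differences were 1.57 for FOXQ1, a forkhead factor, 1.31 for AC009690.1, 1.31 for PLAU and 1.08 for GABRE, a GABA receptor subunit, and each of these 4 fell with MS023.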

How the results depend on the processing

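For GSK591 at 4 against 2 days the 778 calls became 73 with total-count scaling, 430 with DESeq2, 1579 in a fit of the compared groups alone and 1174 with the share of processed pseudogenes as a covariate, and ranged from 215 to 357 without 1 library. The 43 calls of the difference between inhibitors became 0, 28, 173 and 89 in the same order, 75 with no count filter, and 11 to 31 without 1 library. For GSK591 at 7 against 4 days, 1901 became 3663 with total-count scaling (127 higher, 3536 lower), 972 with DESeq2 and 2929 in the groups alone, and 688 to 1038 without 1 library. For MS023 at 4 against 2 days, 1126 became 79 with total-count scaling, 482 with DESeq2, 2530 in the groups alone and 1902 with the covariate, and 286 to 408 without 1 library. In fits that leave out a library the lone sample is assumed to vary like the other groups. The cause of these shifts was not tested, apart from the fewer samples. Of the 89 named genes called at 4 against 2 days, 89 kept their direction in all 12 alternatives, 38 were still called with total-count scaling, and 31 were called in all alternatives. With the replicate block the counts were 826, 51, 1971 and 1209. Same-numbered libraries had a correlation of deviations of 0.018 between 2 and 4 days of GSK591, so the numbers were not taken as pairs.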

Other observations

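These groups were chosen after their values were seen, so no test is given for them. Over all genes tested, 2.25% were called lower and 1.14% higher at 4 against 2 days of GSK591. The shares were 2.69% and 2.22% at 4 against 2 days of MS023, and 4.25% and 4.05% at 7 against 4 days of GSK591. Host genes of snoRNAs lay mostly below 0 at 4 against 2 days of GSK591: of 26 tested genes named SNHG with a number, GAS5 and ZFAS1, 21 had a negative log2 fold change and 7 were called lower, none higher (median -0.30). SNHG1, SNHG16, SNHG3, ZFAS1, SNHG29, GAS5 and SNHG7 had -1.29, -0.58, -0.57, -0.52, -0.51, -0.50 and -0.48. With MS023 8 of the 26 were called lower and 1 higher, and at 7 against 4 days of GSK591 9 were called higher and 1 lower. Most of them overlap genes on their own strand, so the split of reads is uncertain.

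The 62 tested genes annotated as small nuclear RNA genes include pseudogenes, and not all are spliceosomal. Of these 62, 12 were called lower at 4 against 2 days of GSK591 and none higher, with 50 below 0. RNU2-1, a U2 gene, was among them (-0.58), and most of the others are near-identical genes beside it on chromosome 17, so they are not independent measurements. With MS023 10 were called lower, and at 7 against 4 days of GSK591 26 were.

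Of 13 tested mucin genes, 2 were called higher, MUC5AC and MUC5B, and none lower. MUC6, a stomach mucin gene, had 30.9 and 29.7 CPM at 4 days and a log2 fold change of 0.31 that was not called. At 4 against 2 days of MS023, 1 of the 13 was called higher, MUC5B (2.03), and none lower. MUC5AC went from 10.5 and 8.40 CPM to 25.3 and 30.8 CPM with MS023 and was not called (1.57, edgeR adjusted p = 0.0734).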
